A study of Mus musculus with 6 samples.

Results

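The genes described here are those of the CREB family of transcription factors and the coactivators that work with it: Creb1, Crem and Atf1, the coactivators Crtc1, Crtc2, Crtc3, Crebbp and Ep300, and the noncoding gene Gm6225, which is annotated overlapping Crem. They were taken from the deposited table of counts per gene by symbol, and all 9 were found among its 37411 rows. RNA had been sequenced from primary hippocampal neurons of CD-1 IGS mice, an outbred strain, taken from P0 (newborn) pups and used on day 16 in vitro (DIV 16). One group of 3 libraries (1, 2 and 3) came from neurons given DMSO, the solvent, and the other group of 3 (4, 5 and 6) from neurons given 50 µM forskolin in an equal volume, both for 30 min. Forskolin is a plant compound that activates adenylyl cyclase, the enzyme that makes cyclic AMP (cAMP). The labels name no genetic alteration in either group, and they do not say whether the libraries of a group came from separate cultures or litters, so that p-values measure the spread between these libraries only.

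When cAMP rises, protein kinase A phosphorylates CREB, which sits as a dimer on cAMP response elements (CREs) in promoters, and the phosphorylated form binds the acetyltransferases CBP (Crebbp) and p300 (Ep300). In parallel the CRTC proteins, held in the cytoplasm while phosphorylated by salt-inducible kinases, enter the nucleus and bind the leucine zipper of CREB. In neurons this system turns on activity-dependent genes and is known for its part in synaptic plasticity and memory. Crem is both a member of the system and one of its targets, since an internal cAMP-inducible promoter yields the short repressor ICER (inducible cAMP early repressor).

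Total counts ranged from 28342764 to 47548379 per library, and the share of them taken by mitochondrial rRNA was 14.0, 23.7 and 19.8% in DMSO libraries and 29.6, 33.3 and 26.9% in forskolin libraries, higher in each of the latter, library 6 included. The libraries did not separate by treatment on the first principal component (58.5% of variance), on which forskolin library 6 (-44.2) lay among the DMSO libraries (-45.7 to -24.8) and away from forskolin libraries 4 and 5 (66.3 and 73.7). All 9 neuron markers were present, with a summed level of 3576 to 4724 CPM (the count scaled to the library's size with TMM factors) in DMSO and of 2762, 2971 and 4396 CPM in libraries 4, 5 and 6. The cultures also held glia: the 6 astrocyte markers summed to 5271 to 5954 CPM in DMSO and 5252 to 7511 CPM with forskolin, and the 8 oligodendrocyte-lineage markers to 741 to 816 and 589 to 1339 CPM. The 10 microglia markers summed to 6.14 to 11.4 CPM in DMSO and to 161, 292 and 8.42 CPM in libraries 4, 5 and 6, and the 5 vascular and meningeal markers to 50.4 to 81.5 CPM in DMSO and 134, 49.6 and 49.2 CPM with forskolin. The microglia markers Cx3cr1 (0.477 to 0.656 CPM) and P2ry12 (0.263 to 0.561 CPM) were near 0 in DMSO, and the endothelial marker Cldn5 was at 0 counts in every library but library 4. The part of these differences in the results below was not tested beyond the values given beside them, and in such bulk samples fewer cells of a type and less RNA per cell cannot be told apart.

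Of the 9 genes, Gm6225 rose and Crtc1 fell at 30 min of forskolin. The other 7 did not pass the test, Crem among them, although all 3 forskolin libraries were above all 3 DMSO libraries in Crem. The test was edgeR's quasi-likelihood test over all 16233 genes with enough counts, with a Benjamini-Hochberg adjusted p under 0.05 as the threshold, and all 9 genes had enough counts in it. Over all genes tested it called 1.51%, with 0.172% higher and 1.34% lower, beside 1 higher and 1 lower of these 9. Groups that did not overlap were found in 3 of the 9 genes, with 2 above (10.3% over all genes tested) and 1 below (16.2%). The median log2 fold change of the 9 was 0.04 and that of all genes tested was 0.02.

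How many of the 9 were called depended on the fit, as it did over all genes. DESeq2 called 3, adding Crem: 2 higher (4.9% over all genes) and 1 lower (6.03%), or 10.9% of all genes in either direction. limma's voom with library quality weights called 4, adding Crem and Creb1: 3 higher (21% over all genes) and 1 lower (20.9%), or 41.9% in either direction. edgeR without forskolin library 6 called 3, again with Crem: 2 higher (16.5%) and 1 lower (17.1%), or 33.6% in either direction. Without that library and with each library's trend on GC content removed as well, the 3 were Gm6225, Crtc1 and Crtc3 (41.2% over all genes), and without it on library size alone they were Gm6225, Crtc1 and Crem (29.4%). On all 6 libraries, edgeR called both Gm6225 and Crtc1 on library size alone (2.01% over all genes), and of the 9 Gm6225 alone with RLE factors (0.844%), without a low-count filter (0.795%) or with at least 50 counts on average (1.77%). It called 0 genes with the GC trend removed or without any 1 of libraries 1 to 5. The unadjusted p was under 0.05 for 3 of the 9 and for 22.3% of all genes tested, and groups did not overlap in 26.5% of all genes.

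**Figure D1:**
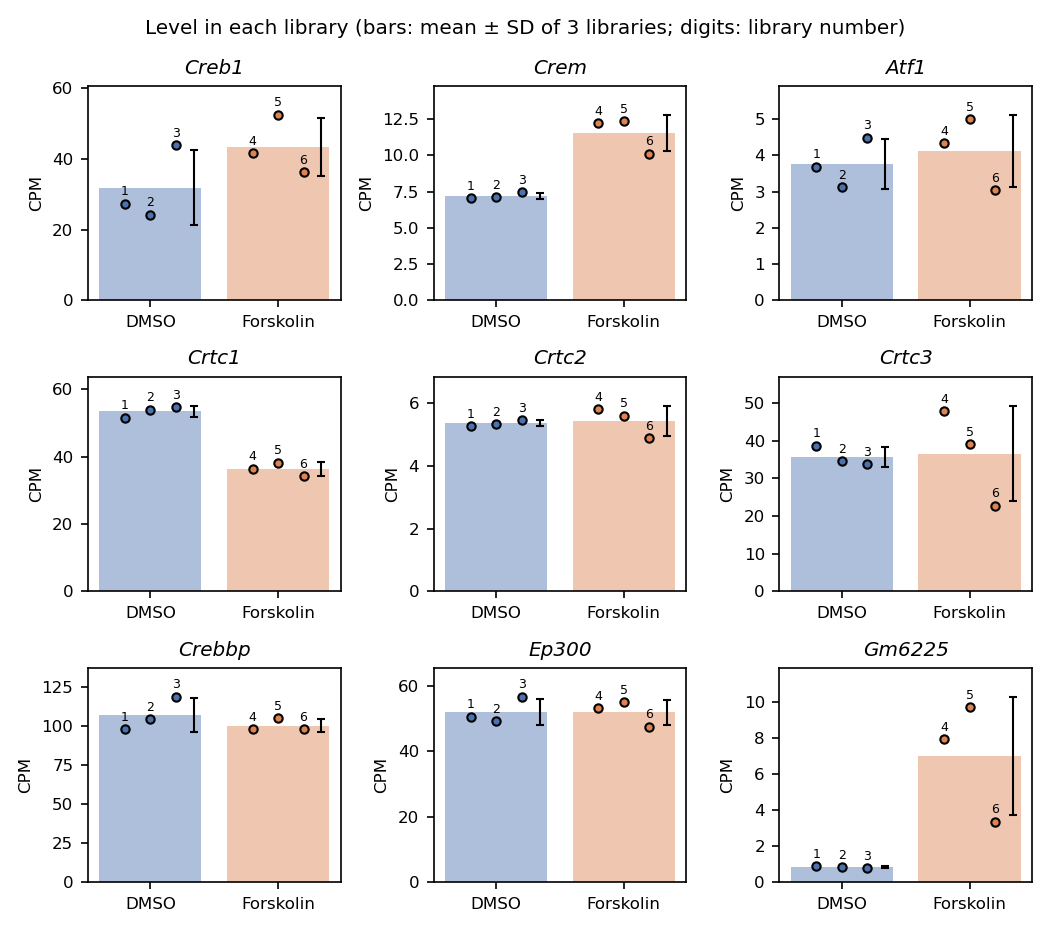
CPM of the 9 genes in each library, with points numbered by library and bars and error bars for the mean and SD of 3 libraries. The forskolin points lie above every DMSO point in Crem and Gm6225 and below every DMSO point in Crtc1, and in the other 6 genes the groups overlap.

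Creb1 encodes CREB itself, the activator that protein kinase A phosphorylates. The gene lies at chr1:64532645-64604548 on the forward strand (GRCm38). After DMSO its level was 27.3, 24.2 and 43.8 CPM in libraries 1, 2 and 3. After forskolin it was 41.5, 52.4 and 36.2 CPM in libraries 4, 5 and 6. DMSO library 3 lay above forskolin libraries 4 and 6, so the groups overlapped. The log2 fold change was 0.45 (95% interval -0.15 to 1.05), with an edgeR adjusted p of 0.330. Without DMSO library 3 it was 0.74 (unadjusted p = 0.00922, adjusted p = 0.173), and without each of the other libraries in turn it lay between 0.31 and 0.55. With each library's trend on GC content removed it was -0.06 (adjusted p = 0.885). The longest transcript of Creb1 has a GC content of 39.6%, and the 1480 tested genes within 2 points of that had a median log2 fold change of 0.42, close to that of Creb1.

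Atf1, at chr15:100227819-100261244 on the forward strand, encodes the third factor of the family, which binds CREs as a dimer with itself or with CREB. Reads of Atf1 were few, with 118, 95 and 160 counts after DMSO and 204, 170 and 102 after forskolin. On the CPM scale this was 3.76 ± 0.689 and 4.13 ± 0.991 (SD, n = 3), and library 6, at 3.05 CPM, was the lowest of all 6. The log2 fold change was 0.13 (95% interval -0.50 to 0.77; edgeR adjusted p = 0.793), and it ran from 0.0067 without library 5 to 0.29 without library 6.

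Crem encodes the cAMP response element modulator, whose splice forms and internal start sites give both activators and repressors. It lies on the reverse strand at chr18:3266048-3337748. Counts of Crem were 225, 217 and 266 after DMSO (libraries 1, 2 and 3), and 574, 420 and 339 after forskolin (libraries 4, 5 and 6). Scaled for depth, these were 7.03, 7.12 and 7.46 CPM and 12.2, 12.3 and 10.1 CPM. The DMSO libraries lay close together, and the lowest forskolin library, number 6, was 1.41-fold the DMSO mean, against 1.69-fold and 1.71-fold in libraries 4 and 5. The fitted change was 1.60-fold (log2 fold change 0.68 ± 0.16 (SE), 95% interval 0.31 to 1.06), and its unadjusted p of 0.00369 ranked 641 of 16233, which gave an edgeR adjusted p of 0.0934, short of the threshold. The interval is for 1 gene and takes no account of the number of genes tested. Crem passed with DESeq2 (adjusted p = 0.00100), with limma's library quality weights (0.00522) and with edgeR without library 6 (log2 fold change 0.75, adjusted p = 0.00952). Those fits called 4.9, 21 and 16.5% of all genes tested higher. Once the GC trend was removed, Crem stood at 0.37 on the log2 scale (edgeR adjusted p = 0.435), and the 2682 tested genes within 2 points of its GC content of 43.2% had a median of 0.22 before that correction.

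The count of Crem pools all of its transcripts. The GENCODE M21 annotation gives it 39 transcripts, and 7 of them, all protein-coding, start more than 50 kb inside the gene, between positions 3281078 and 3281769. Counts per gene cannot separate transcripts that start there from full-length Crem.

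Gm6225 is annotated as a processed transcript, a class without a coding sequence. It lies on the forward strand at chr18:3336680-3366863, so that it starts within the 5' end of Crem and runs away from it: the spans overlap over 1069 bp and the exons over 472 bp, which is 8.01% of the exon bases of Crem and 6.10% of those of Gm6225. Gm6225 was barely detected after DMSO, at 29, 26 and 28 counts, and had 375, 331 and 113 counts after forskolin (libraries 4, 5 and 6). On the depth-scaled level this was 0.906, 0.853 and 0.785 CPM against 7.97, 9.73 and 3.37 CPM. All forskolin libraries lay above all DMSO libraries, with library 6 well below the other 2 treated libraries. The fitted change was 8.26-fold (log2 fold change 3.05 ± 0.43 (SE), 95% interval 2.04 to 4.06; edgeR adjusted p = 0.0371), which ranked 89 by p-value. In library 6, where the microglia markers summed to 8.42 CPM, a sum within its range in DMSO, Gm6225 was 3.98-fold the DMSO mean, against 9.39-fold in library 4 and 11.5-fold in library 5. Single microglia markers of library 6 went both ways. Cx3cr1 (1.17 CPM) and Aif1 (2.03 CPM) were above every DMSO library, and P2ry12 (0.239 CPM) and Tmem119 (0.329 CPM) below.

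The call of Gm6225 was lost without any 1 of libraries 1 to 5 (edgeR adjusted p from 0.131 to 0.299, log2 fold change from 2.77 to 3.11) and with the GC trend removed (2.83, adjusted p = 0.117). Without library 6 it was 3.36 (adjusted p = 0.00176). The strand setting of the counting is not given in the sources used here, so reads from the 472 bp shared by exons of Crem and Gm6225 cannot be told apart. Cul2, the gene downstream of Gm6225 on the same strand, was looked up after these values were seen: its log2 fold change was 0.28 (edgeR adjusted p = 0.254).

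Set against each other within a library, the 2 opposed genes kept no fixed ratio. For each 100 counts of Crem there were 12.9, 11.98 and 10.5 counts of Gm6225 after DMSO (libraries 1, 2 and 3) against 65.3, 78.8 and 33.3 after forskolin (libraries 4, 5 and 6). This ratio is taken within a library and so does not depend on the scaling. The mean log2 ratio was -3.07 ± 0.148 after DMSO and -0.85 ± 0.651 after forskolin (SD, n = 3), a difference of 2.22 with groups that did not overlap (exact two-sided permutation test, p = 0.1, the smallest that 3 against 3 allows; adjusted over the 5 ratios computed, 0.25). Crem against Creb1 gave no such separation: its log2 ratio was -2.09 ± 0.412 in DMSO and -1.90 ± 0.167 with forskolin (exact permutation p = 0.7, adjusted 0.7), and the difference of 0.19 became -0.038 without DMSO library 3. Atf1 against Creb1 differed by -0.36 on the log2 scale with overlapping groups (exact permutation p = 0.2, adjusted 0.25). Of the counts of Creb1, Crem and Atf1 together, however, Atf1 took 9.70, 9.06 and 8.04% after DMSO and 7.46, 7.16 and 6.17% after forskolin, lower in every forskolin library (exact two-sided permutation p = 0.1, the smallest possible; adjusted over 8 family shares, 0.267). The shares of Creb1 and Crem overlapped between the groups.

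**Figure D2:**
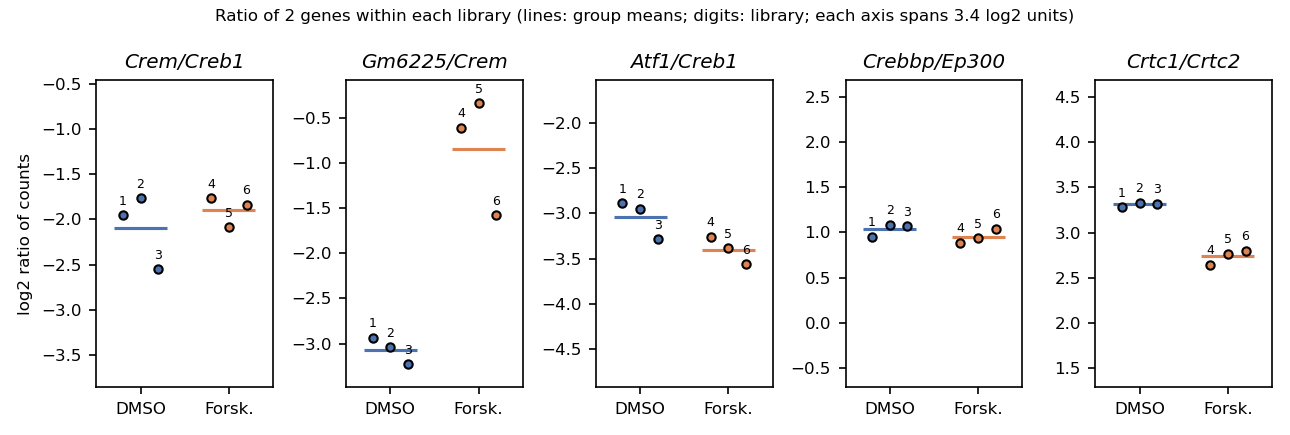
Log2 ratio of the counts of 2 genes within each library, for 5 pairs; points are numbered by library, lines are group means, and every vertical axis spans the same number of log2 units. The groups separate in Gm6225/Crem, from -3.07 to -0.85, and in Crtc1/Crtc2, from 3.31 to 2.74, and overlap in the other 3 pairs.

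Of the CRTC coactivators, Crtc1 fell and the other two did not pass the test. Crtc1, the form best known from neurons, lies at chr8:70382355-70439579 on the reverse strand. Libraries 1, 2 and 3 (DMSO) gave 51.6, 54.0 and 54.8 CPM of Crtc1, and libraries 4, 5 and 6 (forskolin) gave 36.5, 38.3 and 34.2 CPM. The 3 treated libraries were alike and all lay below the DMSO libraries; library 6, which stood apart in Gm6225 and Crem, was here the lowest, at 0.639 of the DMSO mean. Crtc1 fell to 0.679 of its DMSO level (log2 fold change -0.56 ± 0.10 (SE), 95% interval -0.79 to -0.33; edgeR adjusted p = 0.0482, rank 241). The summed neuron markers were at 4396 CPM in library 6, within their DMSO range, and below it in libraries 4 and 5. Within library 6, single markers went both ways. Of the 9, 3 were below every DMSO library in all 3 forskolin libraries, beside 16.2% of all genes tested: Rbfox3 (69.2 to 84.5 CPM after DMSO, and 37.8, 42.8 and 47.2 CPM after forskolin), Tubb3 (284 CPM in library 6 against at least 382 after DMSO) and Slc17a7 (723 against at least 885). Rbfox3, which encodes the neuronal nuclear antigen NeuN, was the 1 neuron marker called lower (log2 fold change -0.87, edgeR adjusted p = 0.0392), beside 1.34% of all genes called lower. Syt1 (839 CPM), Gad1 (388 CPM) and Gad2 (128 CPM) were above every DMSO library in library 6 only. In libraries 4 and 5, Syt1 (402 and 396 CPM) and Gad1 (216 and 152 CPM) were below every DMSO library. Gad2 (79.7 and 81.0 CPM) was there within its DMSO range. The part of neuron content in the fall of Crtc1 was not tested.

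That call stood at the edge of the threshold. The edgeR adjusted p was 0.0599 with RLE scaling, 0.0532 when only genes averaging 50 or more counts were kept and 0.0780 without a low-count filter, and without any 1 of libraries 1 to 5 it ran from 0.154 to 0.342. The log2 fold change in these fits stayed between -0.56 and -0.53. DESeq2 (adjusted p = 5.13e-05), limma's quality weights (0.00541) and edgeR without library 6 (-0.53, adjusted p = 0.00762) called it lower. Of all genes tested, those fits called 6.03, 20.9 and 17.1% lower. Crtc1 has a GC content of 56.5%, and the 2560 tested genes within 2 points of that had a median log2 fold change of -0.25. After removal of the GC trend Crtc1 was at -0.38 (edgeR adjusted p = 0.367), and with library 6 left out as well it was -0.49 (0.0123).

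Crtc2 and Crtc3 have GC contents of 54.5 and 57.0%, near that of Crtc1. Crtc2, the form known from the liver's response to fasting hormones, lies at chr3:90254163-90264125 on the forward strand and had 5.28, 5.35 and 5.47 CPM in DMSO and 5.82, 5.61 and 4.90 CPM with forskolin. Library 6 was again the lowest, and the groups overlapped (log2 fold change 0.02, 95% interval -0.40 to 0.44; edgeR adjusted p = 0.952). Crtc3, at chr7:80586627-80688877 on the reverse strand, had 38.7, 34.7 and 33.7 CPM in DMSO and spread from 22.8 CPM in library 6 to 39.1 and 47.8 CPM in libraries 5 and 4. The treated libraries thus lay on both sides of the DMSO libraries (log2 fold change 0.04, 95% interval -0.57 to 0.65; edgeR adjusted p = 0.942). An antisense gene, Gm15880, overlaps Crtc3 and held 8 to 26 counts per library, against 764 to 2252 for Crtc3.

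Within libraries, Crtc1 held 977, 1009 and 1002 counts for each 100 counts of Crtc2 in DMSO and 626, 682 and 698 with forskolin. The log2 ratio went from 3.31 ± 0.0246 to 2.74 ± 0.0811 (SD, n = 3), a difference of -0.58 with no overlap (exact two-sided permutation p = 0.1, the smallest possible; adjusted 0.25). Of the counts of the 3 CRTC genes together, Crtc1 took 54.0, 57.4 and 58.3% in DMSO and 40.5, 46.1 and 55.2% with forskolin. These shares overlapped through library 6, where Crtc3 took 36.9%, within its DMSO shares of 40.5, 36.9 and 35.9%. In libraries 4 and 5 Crtc3 took 53.1 and 47.2%. Crtc2 took 5.53, 5.69 and 5.82% after DMSO and 6.46, 6.76 and 7.92% after forskolin, so its share was higher in every forskolin library (exact two-sided permutation p = 0.1, the smallest possible; adjusted over the 8 family shares computed, 0.267).

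Neither acetyltransferase passed the test. Crebbp encodes CBP, named for its binding to phosphorylated CREB, and lies at chr16:4081328-4213997 on the reverse strand. It had 97.7, 104 and 119 CPM in DMSO and 97.9, 105 and 97.6 CPM with forskolin (log2 fold change -0.09, 95% interval -0.36 to 0.18; edgeR adjusted p = 0.647). Ep300 encodes the related p300 and lies at chr15:81585351-81652077 on the forward strand. Its levels were 50.5, 49.2 and 56.6 CPM in DMSO and 53.1, 54.9 and 47.5 CPM with forskolin (log2 fold change -0.01, 95% interval -0.27 to 0.25; edgeR adjusted p = 0.975). The intervals allow changes between 0.777-fold and 1.13-fold for Crebbp and between 0.830-fold and 1.19-fold for Ep300. The log2 ratio of Crebbp to Ep300 was 1.04 ± 0.0721 in DMSO and 0.95 ± 0.0806 with forskolin (SD, n = 3; exact permutation p = 0.2, adjusted 0.25).

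**Figure D3:**
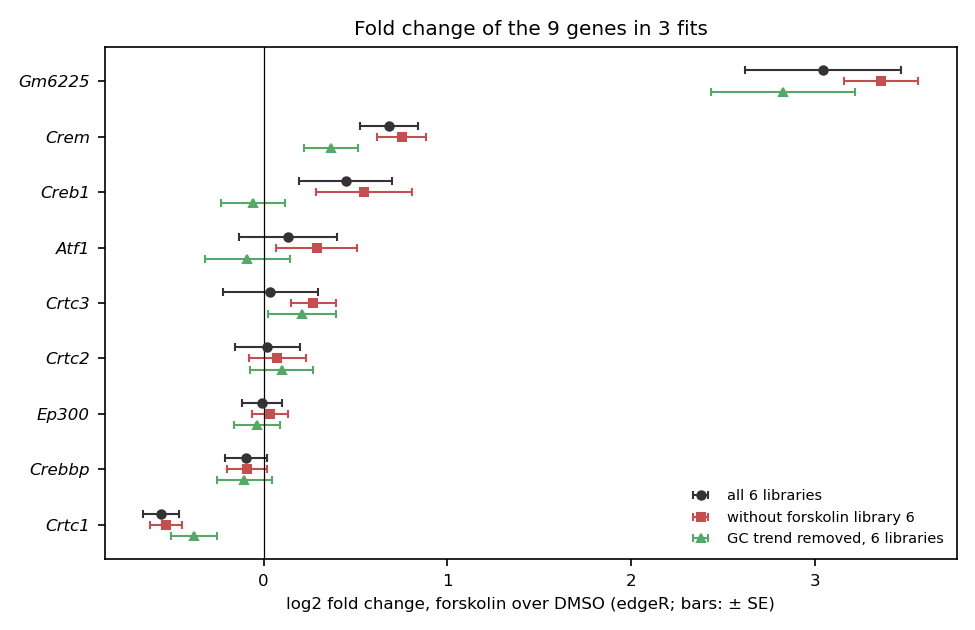
edgeR log2 fold change of forskolin over DMSO for the 9 genes, with ± SE, in the fit of all 6 libraries, the fit without forskolin library 6 and the fit with each library's GC trend removed. Gm6225 lies between 2.83 and 3.36 in the 3 fits and Crtc1 between -0.56 and -0.38, while Creb1 and Atf1 change sign when the GC trend is removed.

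Compared per length, as CPM per kb of annotated exon, the order in DMSO was Crebbp (7.89), Crtc1 (4.78), Ep300 (3.65), Crtc3 (3.62), Creb1 (2.31), Crtc2 (1.31), Atf1 (1.23), Crem (1.22) and Gm6225 (0.110). The libraries of Ep300 (3.44 to 3.96) and Crtc3 (3.42 to 3.93) overlapped, as did those of Atf1 (1.02 to 1.47) with both Crtc2 (1.29 to 1.34) and Crem (1.19 to 1.27), so that these neighbours did not differ beyond their spread. The other neighbours in this order had libraries that did not overlap. With forskolin, Crtc1 (3.25 per kb, libraries 3.06 to 3.42) stood below Ep300 (3.63, libraries 3.33 to 3.85) by means, with overlapping libraries. Crem (1.96, libraries 1.72 to 2.09) stood above Crtc2 (1.33, libraries 1.20 to 1.42) and Atf1 (1.35, libraries 0.995 to 1.63) in every library. Gm6225 reached 0.907 per kb. Part of the order rests on the length used: per kb of the longest transcript, Crtc3 (6.98) came second in DMSO, before Ep300 (5.44) and Crtc1 (5.21), and Crem (2.46) came before Crtc2 (1.79) and Atf1 (1.59).

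**Figure D4:**
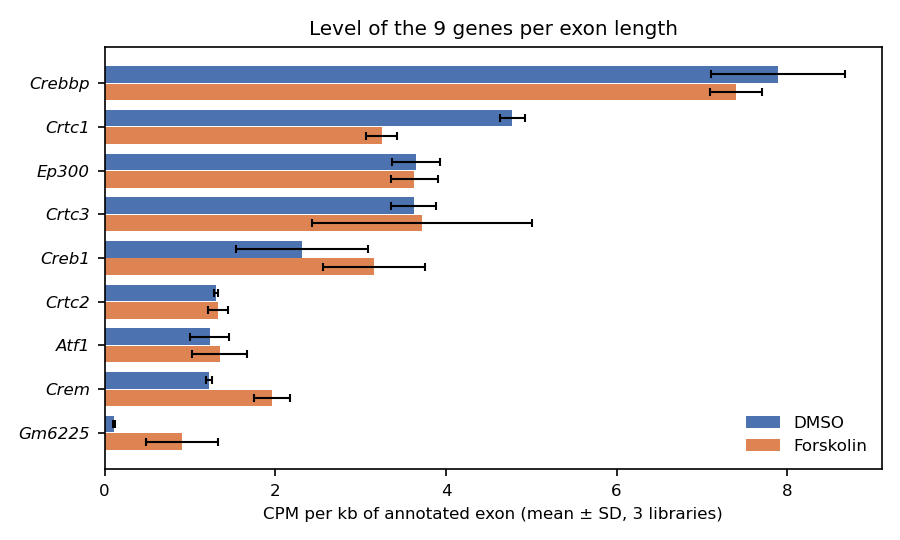
Level of the 9 genes in CPM per kb of annotated exon, as mean ± SD of 3 libraries, DMSO and forskolin. Crebbp is the highest in both groups, Crtc1 drops from 4.78 to 3.25, and Gm6225 goes from 0.110 to 0.907.

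Promoter windows from RefSeq (GRCm38.p6, 250 bases before to 50 after the start) were found for 6 of the 9 genes, and none for Crem, Gm6225 and Crtc2. The full CRE, TGACGTCA, was in none of the 6 windows and in 1.79% of all 32851 windows. The half-site TGACG, searched on both strands and contained in the full CRE, was in 1 of the 6, that of Atf1, and in 20.8% of all windows. No match says only that these letters are not in this window. The stretch around the Atf1 half-site and the 65 bases before the RefSeq start of Crtc1 are shown, the first for its half-site and the second as that of the 1 gene of the 6 that was called; capitals mark TGACG.
Atf1, chr15:100227739-100227803, forward strand: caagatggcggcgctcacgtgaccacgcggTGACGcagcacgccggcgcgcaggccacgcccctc
Crtc1, chr8:70439574-70439638, reverse strand: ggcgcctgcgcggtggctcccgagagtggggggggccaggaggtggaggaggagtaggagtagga
The Atf1 half-site starts 90 bases before the RefSeq start of Atf1, which lies downstream of the GENCODE start given above. The Crtc1 stretch holds neither form, and its 300-base window has a GC content of 71.7%.

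Fold changes went down with GC content over the genes tested (Spearman rho of -0.51 across 15769 genes, which are not independent replicates). Against genes of like GC content, Creb1 (0.45 against a median of 0.42), Atf1 (0.13 against 0.15), Crebbp (-0.09 against -0.08) and Ep300 (-0.01 against -0.06) lay near the median. Crem (0.68 against 0.22) and Gm6225 (3.05 against 0.12) lay above it and Crtc1 (-0.56 against -0.25) below. Crtc2 (0.02 against -0.17) and Crtc3 (0.04 against -0.27) were above it.

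**Figure D5:**
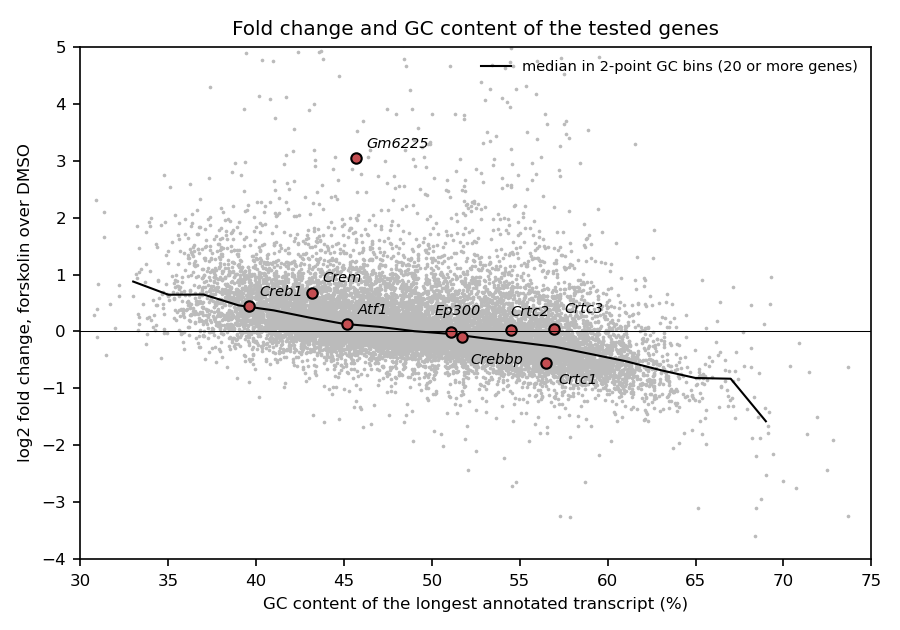
Log2 fold change of forskolin over DMSO against the GC content of each tested gene's longest annotated transcript; grey points are genes, the line is the median in bins, and the 9 genes are named (18 genes lie outside the plotted range). Creb1, Atf1, Crebbp and Ep300 lie near the line, Crem and Gm6225 above it and Crtc1 below it.

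Other parts of the CREB system were read from lists. Of 25 kinases and phosphatases that act on CREB or on CRTC proteins, none passed edgeR's test (0 higher and 0 lower of 25, beside 1.51% called over all genes; median log2 fold change -0.09). At an unadjusted p under 0.05 there were 5 of the 25, beside 22.3% of all genes. The 2 with the smallest p-values were Mark2, a kinase of CRTC proteins (54.4, 56.3 and 54.8 CPM in DMSO, 40.2, 37.4 and 41.2 CPM with forskolin; edgeR adjusted p = 0.0657), and Rps6ka4, which encodes the CREB kinase MSK2 (36.6, 35.5 and 31.1 CPM, then 24.5, 22.0 and 22.2 CPM; adjusted p = 0.0687). In both genes all forskolin libraries were below all DMSO libraries, as in 4 of the 25, beside 16.2% of all genes tested. All forskolin libraries were above in 1 of the 25, beside 10.3% of all genes. Sik1, an inducible salt-inducible kinase that is also in the list of targets, came next and lay the other way: it had 17.7, 18.5 and 15.4 CPM after DMSO and 61.7, 58.3 and 24.6 CPM after forskolin (log2 fold change 1.49, edgeR adjusted p = 0.0876), and was called higher without library 6 (1.79, 0.00176). Among 14 tested bZIP factors related to CREB, edgeR called 0 higher and 0 lower (median 0.05), with 4 at an unadjusted p under 0.05. DESeq2 called 2 of them higher and 2 lower, beside 4.9% and 6.03% over all genes. limma's quality weights called 4 higher and 3 lower, beside 21% and 20.9%. Nearest the threshold were Atf3, a stress-induced factor with 4.59 to 8.81 CPM in DMSO and 31.5, 36.2 and 15.0 CPM with forskolin (log2 fold change 2.12, edgeR adjusted p = 0.0598), and Atf6b (-0.68, 0.0870). Among 14 tested further acetyltransferases and coactivators, edgeR called 0 higher and 0 lower (median -0.09), with 2 at an unadjusted p under 0.05, led by Kat2b (log2 fold change 0.84, edgeR adjusted p = 0.144) and Kat2a (-0.46, 0.172). DESeq2 called 1 of these higher and 0 lower, and limma's quality weights 3 higher and 4 lower. Of the 25 kinases and phosphatases, DESeq2 called 1 higher and 2 lower, and limma's quality weights 2 higher and 10 lower. The shares over all genes are those given above for these 2 fits.

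Of 26 tested genes known as CREB targets, 8 rose and 1 fell by edgeR's test, beside 0.172% called higher and 1.34% called lower over all genes, and the median log2 fold change was 0.90 against 0.02 over all genes. Fos, an immediate early gene whose promoter is known for its CRE, had 186, 109 and 101 CPM after DMSO and 831, 902 and 448 CPM after forskolin, with library 6 again the lowest treated library (log2 fold change 2.46, edgeR adjusted p = 0.0376). The others that rose, by log2 fold change, were Fosb (3.38), Nr4a2 (2.53), Dusp1 (2.52), Rgs2 (1.59), Btg2 (2.40), Klf4 (4.67) and 1700016P03Rik (3.19), which encode transcription factors and regulators of signalling and growth and, for the last, a noncoding RNA. The 1 that fell was Vgf, a secreted neuropeptide precursor, from 335, 397 and 340 CPM to 137, 140 and 150 CPM (log2 fold change -1.33). The list was written with results of these data known, so its count is no independent evidence. Without library 6, edgeR called 18 of 27 targets higher and 3 lower, 2 of 25 kinases and phosphatases higher and 10 lower, 2 of 15 bZIP factors higher and 2 lower, and 2 of 14 coactivators higher and 4 lower, beside 16.5% higher and 17.1% lower over all genes tested.

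The genes whose log2 CPM followed Crem most closely over the 6 libraries were Ptgs2 (Pearson r of 0.9981), which encodes the inducible cyclooxygenase COX-2, and Nr4a2 (0.9974), an inducible nuclear receptor. The small nucleolar RNA gene Gm23202 (0.9965), Nsl1 (0.9948), a kinetochore gene, and the small nucleolar RNA gene Gm22490 (0.9945) came next. Ptgs2 had 3.81, 3.51 and 4.49 CPM in DMSO and 20.8, 24.1 and 12.4 CPM with forskolin, so that library 6 was the lowest treated library there as in Crem. Those most like Gm6225 were Gm22490 (0.9978), Rnf32 (0.9975), Nsl1 (0.9974), Emd (0.9969), which encodes the nuclear envelope protein emerin, and Mettl10 (0.9965). Gm22490 held 0 counts in each DMSO library and 36, 40 and 10 counts in libraries 4, 5 and 6. Crem and Gm6225 correlated at 0.992, and Gm6225 ranked 8 of 16232 genes by likeness to Crem. With 6 libraries of which 3 share a treatment, and with the best taken from all genes, such coefficients describe these libraries only.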

How the data were processed

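Per the labels' protocols, Trizol with chloroform gave the RNA for Illumina libraries. The authors deposited whole-number counts per gene symbol, 1 column per library. The submitters' processing notes name Salmon, DESeq and the build GRCm38, with no role; if Salmon made the counts they are rounded estimates, and reads shared by transcripts were split. Annotation, strand setting and filters are not given in the sources used here. The authors' deposited results table for forskolin against DMSO for 132 genes gives normalised mean counts (signal), log2 fold changes and their standard errors, a score (the test statistic), and p-values before and after adjustment, per the file headers. None of the 9 genes is in it, and its smallest log2 fold change is 1.50. Of the 9, only Gm6225 (3.05) was above that value here, so the absence of the others does not bear on their change. The deposited results were not used further.

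Counts were analysed in R 4.3.3 with edgeR 4.0.16: filterByExpr (minimum count 10, minimum total 15), TMM, glmQLFit and glmQLFTest on group, Benjamini-Hochberg adjustment over all tested genes. The SE is the absolute log2 fold change over the square root of F. Log2 CPM used a prior count of 2, and ratios added 0.5 to each count. Positions, lengths and GC content came from GENCODE M21 (GRCm38), matched by symbol for 36174 of 37411 rows. The GC alternative removed a spline (4 df) of log2 CPM on GC from each library. DESeq2 1.42.0 and limma 3.58.1 were alternatives. The fit was run on simulated counts with the same dispersion for every gene and changes only in well-counted genes. The simulation held no outlying library and no GC trend, so it cannot show how the fit handles them. Named were the 9 genes, the 5 genes most correlated with Crem and with Gm6225, and in each list the called genes or the 2 with the smallest p-values; Cul2, Gm15880, Sik1 and 9 cell type markers were chosen after their values were seen. The genes, lists and tests were chosen with earlier results of these data known. The SE of a fold change covers counting error and the spread between libraries together.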

Additional observations from a re-analysis of the deposited data

How the results depend on the processing

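The fit was repeated under 15 alternatives. edgeR on all 6 libraries called 28 genes higher and 217 lower; DESeq2 called 796 and 979, limma with quality weights 3403 and 3392, and RLE factors gave 113 lower. Without a low-count filter 46 were higher. With the GC trend removed edgeR called 0 and 0, with 1808 genes at an unadjusted p under 0.05. Leaving out 1 library gave 0 to 2796 higher and 0 to 2902 lower: it was 0 without any 1 of libraries 1 to 5 (1945 to 3216 genes at an unadjusted p under 0.05) and the upper values without library 6. Without library 6, removing the GC trend as well gave 2107 and 4878, and scaling by library size alone, an alternative added after seeing the data, 1917 and 3058. The median over all genes tested was 0.02 on the log2 scale and -0.09 on library size alone. With the GC trend removed it was -0.07, and -0.18 with library 6 left out as well. The values of the 9 genes in those fits carry that shift.

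Of the 9 genes, 2 were called in the 6 libraries, against 4 with quality weights, 1 with RLE factors, without a low-count filter or with a mean count of at least 50, 0 with the GC trend removed, and 0 to 3 with 1 library left out. Gm6225 kept its direction in all 15 alternatives and passed in 9; its log2 fold change was 2.83 with the GC trend removed and 2.77 to 3.36 with 1 library left out. Crem kept its direction in all 15, at 0.34 to 0.76, and passed in 4: DESeq2 (0.70), quality weights (0.76), without library 6 (0.75) and without it on library size alone (0.65); leaving out 1 library gave 0.64 to 0.75. Crtc1 was lower in all 15 and passed in 6.

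Creb1, Atf1, Crtc2, Crtc3 and Ep300 changed sign under some alternatives. Creb1, at 0.45 on the 6 libraries, was -0.057 with the GC trend removed and -0.13 without library 6 as well, and ran from 0.31 (without library 2) to 0.74 (without library 3) with 1 library left out. Atf1, at 0.13, was -0.088 with the GC trend removed and ran from 0.0067 (without library 5) to 0.29 (without library 6). On library size alone Crtc2 was -0.085 (-0.025 without library 6) and Crtc3 -0.074. Ep300 was 0.0097 with DESeq2, 0.0098 with RLE factors, 0.014 with a mean count of at least 50 and 0.070 with quality weights. With 1 library left out Crtc2 ran from -0.031 (without library 4) to 0.075, Crtc3 from -0.21 (without library 4; -0.016 without library 3) to 0.27, and Ep300 from -0.029 to 0.045 (without library 3; 0.036 without library 6). Quality weights called Creb1 higher (0.69), and GC removal without library 6 called Crtc3 higher (0.34). The difference in the Crem to Creb1 ratio ran from -0.038 (without library 3) to 0.36; the other 4 ratios kept their direction. The cause of these changes was not tested. No paired analysis was possible because the groups share no replicate number.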
